A study of Mus musculus with 9 samples.

Results

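The genes described are 43 mouse genes of the lysosome, listed by name for what their products do, with earlier results of these data known: 11 cathepsins, 16 other hydrolases, 2 soluble cofactors, 7 membrane proteins, 6 subunits or partners of the proton pump and the transcription factor Tfeb. They are 43 of the 56748 genes in the count table, and all 43 were among the 18510 genes that passed the filter on low counts (at least 0.5 CPM, read counts scaled to library size, in at least 1 library). RNA sequencing was performed on epididymal adipose tissue of wild-type (WT) male C57BL/6J mice, which were 8 weeks old when high-fat diet (HFD) began. Every mouse received HFD for 8 weeks. Tissue was taken at the end of HFD (Pre), or after a further 1 week (WL1) or 2 weeks (WL2) of standard diet (SD), during which the mice lost weight, with 3 libraries per phase. The labels number the libraries of a phase without naming the mice, so p-values measure the spread between these libraries.

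The lysosome is the acidic compartment in which cells break down proteins, lipids, glycans and worn-out organelles. A proton pump in its membrane, the V-ATPase, keeps the lumen acidic, and the hydrolases inside work at that pH. In obese adipose tissue, macrophages around dying adipocytes take up released lipid and digest it in their lysosomes, while adipocytes, fibroblasts and endothelial cells hold lysosomes of their own. Many lysosomal genes carry a CLEAR element in their promoter, a short sequence bound by TFEB and its relatives MITF, TFE3 and TFEC.

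Reads counted per library ranged from 16434450 to 22729072, and the 43 genes took between 1.39% and 3.53% of them. Values below are CPM with TMM scaling of the libraries, unless FPKM is named. Adipocyte markers were abundant in every library (Adipoq 1675 to 3457 CPM), and 5 epididymis genes summed to at most 0.174 CPM. Pre replicate 2 stood apart in lymphocyte genes: 5 B cell genes summed to 201 CPM there and to between 3.83 and 19.0 CPM in the other 8 libraries. WL2 replicate 1 stood apart from the other WL2 libraries and near the WL1 libraries in many of the lysosomal genes. Whether this lies in the mouse or in the labelling of the library cannot be told apart from these files, and it bears on every WL2 value below. The tests come from a single model of all 9 libraries, so WL2 replicate 1 also enters the test of WL1 against Pre. Counts of the 43 genes, and those list counts that it moves most, are given with and without it. In whole tissue, a change in the number of cells of a type and a change in RNA per cell cannot be told apart.

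Promoter sequences from RefSeq (GRCm38.p6, 250 bases before to 50 after the start) were found for 36 of the 43 genes. The letters TCACGTG, the core of the CLEAR element, were present on either strand in 10 of these 36 promoters (27.8%), against 4.29% of the promoters of 27025 genes. The palindrome TCACGTGA, which contains that core, was in 5 (13.9% against 1.12%). The 10 genes were Ctsa, Ctsd, Gaa, Glb1, Naglu, Sgsh, Lamp1, Mcoln1, Atp6v0d1 and Atp6v1a. The following stretches are shown because they carry the core in genes described below with unlike orders of libraries, 5′ to 3′ on the strand of the gene. Capitals mark the palindrome TCACGTGA in Ctsa, Ctsd and Atp6v1a and the core TCACGTG in Glb1 and Sgsh.
Ctsa: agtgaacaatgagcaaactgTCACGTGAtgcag
Ctsd: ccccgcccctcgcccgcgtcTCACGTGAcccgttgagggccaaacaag
Atp6v1a: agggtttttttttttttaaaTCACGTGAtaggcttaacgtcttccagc
Glb1: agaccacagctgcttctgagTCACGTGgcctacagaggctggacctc
Sgsh: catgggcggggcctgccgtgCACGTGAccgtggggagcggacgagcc
They lie at chr2:164833740-164833772 (plus strand), chr7:142387899-142387946 (minus), chr16:44139364-44139411 (minus), chr9:114401009-114401055 (plus) and chr11:119355513-119355559 (minus). The stretch in capitals began 13 bases before the annotated start in Ctsa, 99 in Ctsd, 132 in Atp6v1a, 49 in Glb1 and 29 in Sgsh, where it reads as its reverse complement. Further copies of the core, not shown, began at position 4 after the start in Ctsa and at position -245 in Ctsd.

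Ctsk and Lipa, which rose at WL1, were not among those 10. Letters searched for other factors were GAGGAAG, the core bound by the myeloid factor PU.1 (7 of 36 promoters, 19.4%, against 15.4% of all), and TGAGTCA, the AP-1 site (3 of 36, 8.33%, against 5.95%). The 7 genes were Ctsc, Ctsk, Ctss, Gusb, Laptm5, Lipa and Man2b1, and the 3 were Cd68, Glb1 and Psap. Their log2 fold changes between WL1 and Pre ran from -0.22 in Ctsc to 1.75 in Ctsk, with 0.02 in Glb1. The stretches of Ctsk and Lipa and of Cd68, a macrophage membrane protein, are shown because their letters differ from the CLEAR core, again with the motif in capitals.
Ctsk: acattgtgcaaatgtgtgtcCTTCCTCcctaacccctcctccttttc
Lipa: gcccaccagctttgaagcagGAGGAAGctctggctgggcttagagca
Cd68: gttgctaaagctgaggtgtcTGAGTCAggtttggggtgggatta
They lie at chr3:95499131-95499177 (plus), chr19:34527631-34527677 (minus) and chr11:69666171-69666214 (minus), with the motif beginning 59, 183 and 24 bases before the start, and Ctsk carries the reverse complement. Further copies of the same motif, not shown, began at position -233 in Ctsk and -149 in Cd68. Between WL1 and Pre, the 10 genes with TCACGTG had a median log2 fold change of 0.17 and the 26 matched genes without it one of 0.33. Of the former 1 passed the test between these phases (Sgsh, which fell), and of the latter 3 (Ctsk and Lipa, which rose, and Smpd1, which fell). Of all genes tested, 2.60% rose and 4.69% fell. Atp6v0d2 and Npc1, which also rose, had no promoter sequence here and are in neither group. A match is a description of letters, and binding was not measured.

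Most of the 43 genes were higher after 1 week of SD than at the end of HFD, and lower again after 2 weeks. The fitted log2 fold change was positive in 35 of 43 genes at WL1 against Pre (median 0.32, against 0.02 over all genes tested) and in 4 of 43 when WL2 was set against WL1 (median -0.53, against -0.00 over all genes). At WL2 against Pre the median was -0.12 (0.01 over all genes), with 13 genes positive, and it turned to 0.02 when libraries were scaled by their totals, which also moved the median of all genes by 0.16. These comparisons share libraries in pairs, so their signs are not independent of each other. The tests are edgeR quasi-likelihood tests from a single model of all 9 libraries, with Benjamini-Hochberg adjustment over all genes tested and a threshold of 0.05. Every adjusted p given below comes from this test.

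Fewer genes passed the test than moved. At WL1 against Pre, 4 of 43 rose (Atp6v0d2, Ctsk, Lipa and Npc1), beside 2.60% of all genes, and 2 fell (Smpd1 and Sgsh), beside 4.69%. At WL2 against Pre, 4 fell (Sgsh, Npc2, Glb1 and Smpd1), beside 6.66%, and 0 rose, beside 3.35%. At WL2 against WL1, 2 fell (Npc2 and Glb1), beside 2.37%, and 0 rose, beside 1.31%. At an unadjusted p under 0.05 the numbers were 17 higher and 3 lower for WL1 over Pre, 0 and 6 for WL2 over Pre, and 0 and 28 for WL2 over WL1. Of all 18510 genes tested, 4496, 4807 and 3960 had such a p in these comparisons, both directions together. DESeq2 called 13 higher and 2 lower, 0 and 4, and 0 and 18, and its calls included every gene named in this paragraph. How many of all genes DESeq2 called is not given here.

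**Figure D1:**
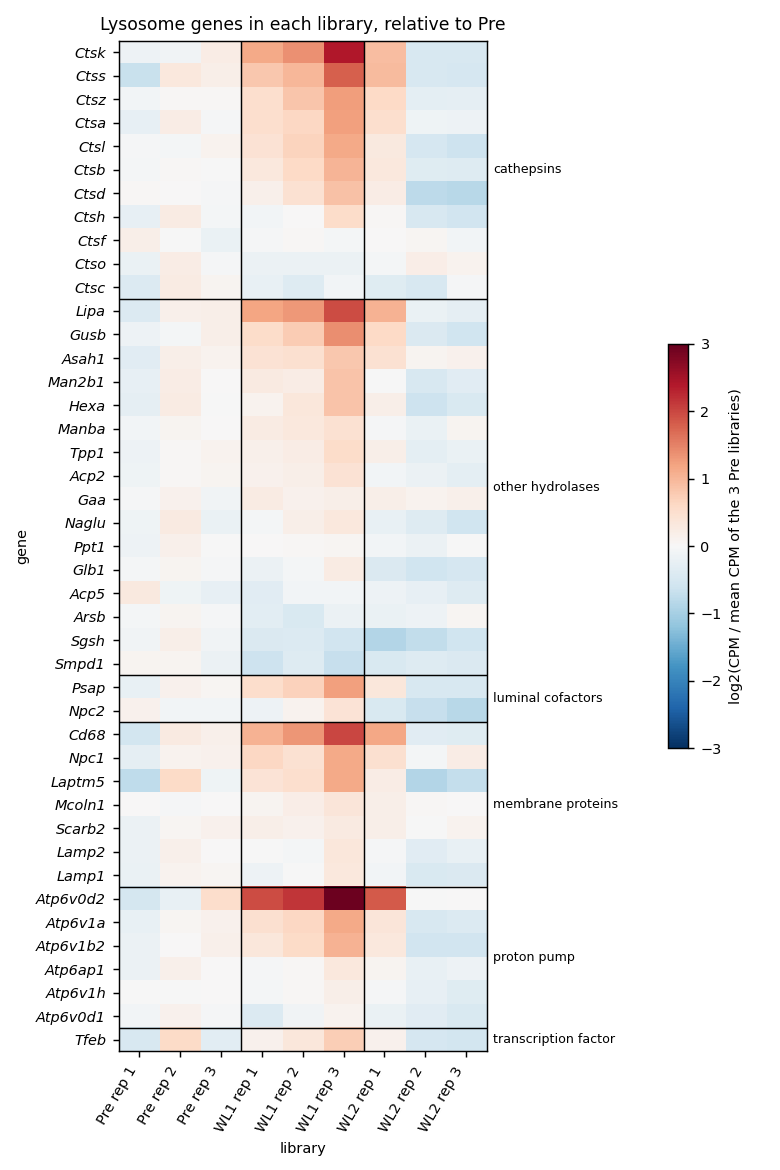
Level of each of the 43 genes (rows, by subgroup) in each of the 9 libraries (columns), as log2 of CPM over the mean CPM of the 3 Pre libraries (colour scale, blue lower and red higher). WL1 replicate 3 held the highest CPM of the 9 libraries in 33 of 43 genes, and WL2 replicate 1 was above both other WL2 libraries in 35. Neither order was counted over all genes.

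The libraries of a phase differed in how far they followed this pattern, as the map of levels by library shows. WL1 replicate 3 held the highest value in 33 of 43 genes, another WL1 library in 1 and a Pre library in 9. WL2 replicate 1 lay within the range of the WL1 libraries in 25 genes, while WL2 replicates 2 and 3 both lay below the 3 Pre libraries in 25. These orders were counted in the 43 genes only, so whether other genes share them is not shown. Without WL2 replicate 1, edgeR called 16 genes at WL1 against Pre (14 higher and 2 lower), 4 at WL2 against Pre (all lower) and 19 at WL2 against WL1 (all lower). The 14 were Atp6v0d2, Atp6v1a, Atp6v1b2, Cd68, Ctsa, Ctsb, Ctsk, Ctsl, Ctss, Ctsz, Gusb, Lipa, Npc1 and Psap. The 19 were the same genes without Npc1, joined by Ctsd, Glb1, Hexa, Laptm5, Man2b1 and Npc2. Without WL1 replicate 3 the calls numbered 0, 3 and 0, and without Pre replicate 1 they numbered 0, 2 and 2. Without Pre replicates 2 and 3 they numbered 1 and 2 at WL1 against Pre, and without WL1 replicates 1 and 2 they numbered 2 and 3. Without WL2 replicate 2 or 3, 1 gene was called for WL2 over Pre and 0 for WL2 over WL1. How many of all genes these refits called is not given here, so their counts cannot be set against a share of all genes.

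The ranges of the libraries gave a view without a model. At WL1, all 3 libraries were above all 3 Pre libraries in 23 of 43 genes (14.7% of all genes tested) and below them in 3 (13.9% of all). At WL2, 7 genes were below the Pre range (15.8% of all) and 0 above it (15.1% of all). Between WL2 and WL1, 17 genes were below (16.4% of all) and 1, the cysteine protease Ctso, was above (13.9% of all).

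Levels between genes can be compared per length, in the FPKM the authors deposited. Psap, the precursor of the saposins that present sphingolipids to their hydrolases, had the highest mean over the 9 libraries (1635 FPKM), followed by the proteases Ctsd (652), Ctsb (630), Ctss (380) and Ctsz (299). The lowest were Manba (5.01 FPKM), Tfeb (5.20) and Npc1 (5.26). In summed CPM, Psap, Ctsb and Ctsd together made up between 47.7% and 53.6% of the 43 genes in every library, so that the sum follows these 3 closely.

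Of the cathepsins, proteases that are mostly cysteine or aspartic in type, Ctsk rose. Ctsk is the collagen-degrading protease best known from osteoclasts. Its libraries held 66.4, 68.9 and 85.6 CPM at Pre, 161, 192 and 389 at WL1, and 140, 53.0 and 52.7 at WL2. All WL1 libraries were above all Pre libraries, and WL2 replicate 1 was the only WL2 library above the Pre range. From Pre to WL1 its log2 fold change came to 1.75 (SE 0.42, adjusted p = 0.0336), a 3.36-fold rise, and from WL1 to WL2 it was -1.59 (SE 0.41, adjusted p = 0.0611), which did not pass. Leaving out each library in turn gave 1.25 to 1.98 at WL1 against Pre with adjusted p between 0.00811 and 0.110, and the call was lost without any of the Pre libraries or without WL1 replicate 2 or 3.

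The abundant cathepsins did not pass between 2 phases in the fit of all 9 libraries. Without WL2 replicate 1, Ctsb passed at WL1 against Pre, Ctsd at WL2 against Pre, and both at WL2 against WL1. Ctsd, the main aspartic protease of the lysosome, held 1574, 1536 and 1489 CPM at Pre, 1715, 2115 and 2833 at WL1, and 1796, 890.0 and 856 at WL2. The WL1 libraries were above the Pre libraries, and WL2 replicate 1 lay within the WL1 range while the other WL2 libraries were below Pre. Its fitted log2 change was 0.53 (SE 0.28, adjusted p = 0.263) for WL1 over Pre and -0.91 (SE 0.28, adjusted p = 0.0920) for WL2 over WL1. For Ctsb, a cysteine protease that is also an exopeptidase, the libraries ranged from 3362 to 3585 CPM at Pre, from 4341 to 7083 at WL1 and from 2647 to 4351 at WL2. The log2 fold changes of Ctsb were 0.68 (SE 0.22, adjusted p = 0.0917) for WL1 over Pre and -0.79 (SE 0.22, adjusted p = 0.0752) for WL2 over WL1.

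Ctsz, a carboxypeptidase, had the smallest p among the cathepsins that did not pass at WL1 against Pre. Its libraries held 333, 366 and 365 CPM at Pre, 504, 636 and 839 at WL1, and 539, 290.1 and 293 at WL2, with no overlap between Pre and WL1. In log2, the fold change was 0.90 (SE 0.25, adjusted p = 0.0581). Ctsa, a carboxypeptidase that also shields beta-galactosidase and neuraminidase, had one of 0.83 (SE 0.23, adjusted p = 0.0583). The reads of Ctsa may include those of Pltp, which overlaps it on the opposite strand with 159% of its reads. Ctsl, an endopeptidase, had 0.77 (SE 0.25, adjusted p = 0.0872) and ranged from 894 to 1001 CPM at Pre, from 1253 to 2054 at WL1 and from 611 to 1150 at WL2. Ctss, which trims the invariant chain of MHC class II in antigen-presenting cells, had the second largest value of the cathepsins, 1.26 (SE 0.43, adjusted p = 0.103).

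Ctsf, Ctsh, Ctsc and Ctso did not share this order. Ctsf, a cysteine protease, stayed between 81.8 and 107 CPM in all 9 libraries. Ctsc, which activates granule proteases of leukocytes, ranged from 111 to 173 CPM at Pre, from 112 to 140 at WL1 and from 106 to 142 at WL2, with overlap throughout. Ctso was between 64.3 and 64.7 CPM at WL1 and between 69.8 and 84.1 at WL2, against 63.8 to 84.6 at Pre. Ctsh, an aminopeptidase, ranged from 96.0 to 136 CPM at Pre, from 107 to 168 at WL1 and from 76.0 to 117 at WL2. Of the 11 cathepsins, 7 had all WL1 libraries above all Pre libraries (14.7% of all genes tested), and 1 passed the test with a rise (2.60% of all). DESeq2 called 5 higher and 0 lower there, and edgeR without WL2 replicate 1 called 6 and 0. At WL2 against WL1, edgeR called 0, DESeq2 6 lower, and edgeR without WL2 replicate 1 7 lower. How many of all genes these alternatives called is not given here.

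Among the other hydrolases, Lipa rose. It encodes lysosomal acid lipase, which frees cholesterol and fatty acids from the cholesteryl esters and triglycerides that reach the lysosome. Its libraries held 177, 262 and 264 CPM at Pre, 536, 579 and 914 at WL1, and 482, 205 and 194 at WL2. The lowest WL1 library was above the highest Pre library, and WL2 replicate 1 was again above the Pre range while the others were within it. Fitted in log2, the step from Pre to WL1 was 1.53 (SE 0.35, adjusted p = 0.0296), a 2.89-fold rise, and from WL1 to WL2 it was -1.20 (SE 0.35, adjusted p = 0.0830). The call was lost on leaving out any 1 of the Pre or WL1 libraries (1.24 to 1.67, adjusted p between 0.00470 and 0.101 over the 9 fits).

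Enzymes of sphingolipid breakdown did not move together. Smpd1 encodes acid sphingomyelinase, which splits sphingomyelin into ceramide and phosphocholine. Its libraries held 150.0, 150 and 125 CPM at Pre, 92.0, 108 and 87.4 at WL1, and 103, 107 and 106 at WL2, so that every library after SD was below every Pre library. The fitted change in log2 was -0.56 (SE 0.12, adjusted p = 0.0197) for WL1 over Pre and -0.43 (SE 0.12, adjusted p = 0.0442) for WL2 over Pre. The first call was lost without Pre replicate 1, WL1 replicate 1 or WL1 replicate 3 (-0.66 to -0.51, adjusted p up to 0.0742), and the second remained in 2 of the 9 fits, those without Pre replicate 3 and WL1 replicate 2 (-0.51 to -0.38, adjusted p up to 0.125). Asah1, acid ceramidase, which acts on the ceramide, held 103, 146 and 138 CPM at Pre, 174, 179 and 227 at WL1, and 177, 136 and 141 at WL2. Its WL1 libraries were all above Pre, and it had the smallest p among the hydrolases that did not pass (0.59, SE 0.17, adjusted p = 0.0635).

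Glb1 encodes beta-galactosidase, which removes terminal galactose and gives the senescence-associated stain of cells. Its libraries held 64.9, 72.1 and 66.0 CPM at Pre, 60.2, 65.2 and 80.1 at WL1, and 50.2, 44.4 and 47.4 at WL2. All WL2 libraries were below all Pre and WL1 libraries, which overlapped each other. Its log2 difference was -0.52 (SE 0.12, adjusted p = 0.0255) at WL2 against Pre and -0.53 (SE 0.12, adjusted p = 0.0433) at WL2 against WL1. Leaving out libraries gave -0.56 to -0.47 in the first (lost without Pre replicate 2, WL2 replicate 2 or WL2 replicate 3, adjusted p up to 0.113) and -0.62 to -0.39 in the second (lost in 6 of 9 fits, those without Pre replicate 3, any WL1 library, WL2 replicate 2 or WL2 replicate 3, adjusted p up to 0.204). Tmppe overlaps Glb1 on the same strand, with 11.4% of its reads.

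Sgsh encodes sulfamidase, which takes sulfate groups from heparan sulfate. Its libraries held 39.6, 48.5 and 39.9 CPM at Pre, 31.5, 32.0 and 28.7 at WL1, and 23.1, 25.6 and 28.3 at WL2. The 3 phases formed separate ranges, with Pre highest and WL2 lowest. Its fitted log2 change was -0.47 (SE 0.12, adjusted p = 0.0455) for WL1 over Pre and -0.73 (SE 0.12, adjusted p = 0.00484) for WL2 over Pre. The second passed in each of the 9 fits without 1 library (-0.80 to -0.63, adjusted p between 0.00779 and 0.0287), whereas the first passed only in the fit without WL2 replicate 1 (-0.52 to -0.37, adjusted p up to 0.141). Naglu, which acts on the same glycan, held 77.3, 102 and 73.0 CPM at Pre, 80.7, 94.4 and 105 at WL1, and 72.2, 63.9 and 55.8 at WL2. Its WL2 libraries were below the other 6, with log2 fold changes of -0.39 (SE 0.16, adjusted p = 0.147) against Pre and -0.55 (SE 0.16, adjusted p = 0.0819) against WL1, neither of which passed.

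**Figure D2:**
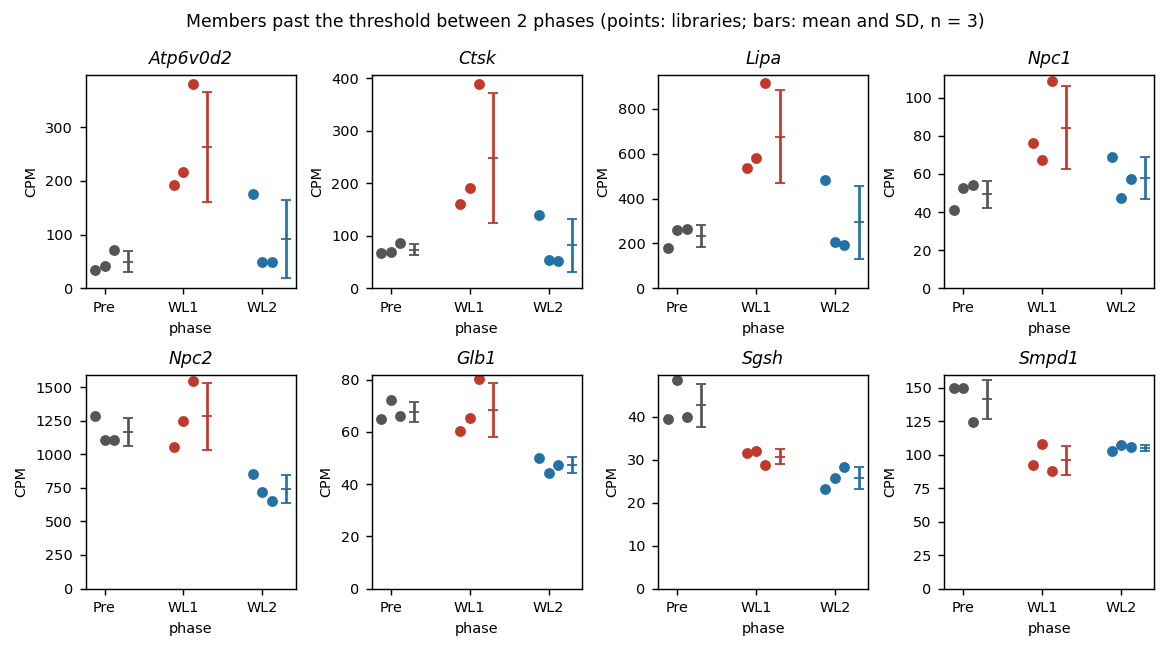
CPM of the 8 genes that passed the test between 2 phases, with a point for each library (replicates 1 to 3 from left to right) and bars for mean and SD (n = 3 per phase). The upper row shows Atp6v0d2, Ctsk, Lipa and Npc1, whose WL1 libraries are all above Pre, and the lower row Npc2, Glb1, Sgsh and Smpd1, whose WL2 libraries are all below Pre.

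The remaining hydrolases did not pass in any comparison of 2 phases. Hexa, the alpha subunit of hexosaminidase and the hydrolase with the highest mean FPKM of this subgroup (148), held 246, 351 and 292 CPM at Pre, 321, 376 and 532 at WL1, and 333, 191 and 215 at WL2. The phases overlapped, apart from WL1 replicate 3, which was the highest of the 9. Gusb, beta-glucuronidase, ranged from 165 to 206 CPM at Pre, from 265 to 481 at WL1 and from 121 to 277 at WL2, with a log2 fold change equal to 0.95 (SE 0.31, adjusted p = 0.0942) at WL1 against Pre. For the mannosidases, all WL1 libraries were above Pre, with 0.35 (SE 0.11, adjusted p = 0.0898) for Manba. Man2b1 ranged from 279 to 386 CPM at Pre and from 389 to 597 at WL1.

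Gaa, which degrades glycogen, Tpp1, a peptidase, and Acp2, an acid phosphatase, also had WL1 libraries above Pre without passing. Their CPM ranged over the 9 libraries from 193 to 245, from 168 to 301 and from 61.6 to 101. Arsb, a sulfatase of dermatan sulfate, had WL1 libraries below Pre, with 54.1 to 65.9 CPM against 72.0 to 79.4 and a log2 fold change equal to -0.31 (SE 0.11, adjusted p = 0.125). Acp5, the tartrate-resistant phosphatase of osteoclasts and macrophages, ranged from 269 to 389 CPM at Pre and from 251 to 299.7 at WL1, with overlap, although Ctsk and Atp6v0d2, which are also known from osteoclasts, rose. Ppt1, a thioesterase that removes palmitate from proteins, stayed between 82.2 and 104 CPM. Its reads may include those of Cap1, which overlaps it on the opposite strand with 313% of its reads.

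The Niemann-Pick genes pass cholesterol from the lumen to the membrane in sequence, with NPC2 taking it up in solution and NPC1 receiving it. Npc2 held 1284, 1107 and 1106 CPM at Pre, 1054, 1247 and 1547 at WL1, and 855, 723 and 653 at WL2, so that all WL2 libraries were below the other 6. Its log2 fold change was -0.65 (SE 0.16, adjusted p = 0.0300) at WL2 against Pre and -0.79 (SE 0.16, adjusted p = 0.0305) at WL2 against WL1. The calls remained in 5 of the 9 fits without 1 library each. The former was lost without Pre replicate 1, Pre replicate 3, WL2 replicate 2 or WL2 replicate 3 (-0.76 to -0.56, adjusted p up to 0.118), and the latter without WL1 replicate 2, WL1 replicate 3, WL2 replicate 2 or WL2 replicate 3 (-0.91 to -0.61, adjusted p up to 0.153).

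Npc1 held 41.3, 52.8 and 54.1 CPM at Pre, 76.2, 67.6 and 109 at WL1, and 69.2, 47.3 and 57.5 at WL2. Its WL1 libraries were above Pre, and its WL2 libraries overlapped both. On the log2 scale the rise from Pre to WL1 was 0.77 (SE 0.20, adjusted p = 0.0450), and the call remained in 2 of 9 fits, those without WL1 replicate 2 and WL2 replicate 1 (0.53 to 0.90, adjusted p up to 0.139). Rmc1 overlaps Npc1 on the opposite strand with 82.4% of its reads, and whether counting used strand is not known. Psap, the other soluble cofactor, held 3342, 4286 and 4076 CPM at Pre, 5633, 6330 and 9115 at WL1, and 4957, 2817 and 2785 at WL2. Its WL1 libraries were above all the others, and its log2 fold changes of 0.85 (SE 0.25, adjusted p = 0.0687) for WL1 over Pre and -0.997 (SE 0.25, adjusted p = 0.0564) for WL2 over WL1 did not pass.

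Of the 7 membrane proteins, Npc1 alone passed. Lamp1, a heavily glycosylated protein that lines the lysosomal membrane of every cell type and had the highest mean FPKM of the membrane proteins (283), held 747, 919 and 891 CPM at Pre, 763, 849 and 1060 at WL1, and 803, 623 and 636 at WL2. The 3 phases overlapped. Lamp2, Scarb2, a membrane glycoprotein, and the calcium channel Mcoln1 ranged over the 9 libraries from 276 to 437, from 161 to 220.3 and from 55.0 to 72.7 CPM. Cd68, the macrophage relative of the LAMP proteins, had a wider span, with 111, 193 and 179 CPM at Pre, 334, 402 and 648 at WL1, and 362, 126 and 125 at WL2. All WL1 libraries of Cd68 were above Pre, and WL2 replicate 1 lay within the WL1 range.

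Cd68 had the smallest p of the membrane proteins that did not pass at WL1 against Pre, with a log2 fold change equal to 1.52 (SE 0.42, adjusted p = 0.0566). Laptm5, a lysosomal protein of blood cells, held 166, 422 and 257 CPM at Pre, 371, 402 and 618 at WL1, and 329, 154 and 172 at WL2. Its highest Pre value was in replicate 2, the library with 201 CPM of B cell genes, and lay above 2 of the 3 WL1 libraries. The part of lymphocytes in the Pre values of Laptm5 was not tested.

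**Figure D3:**
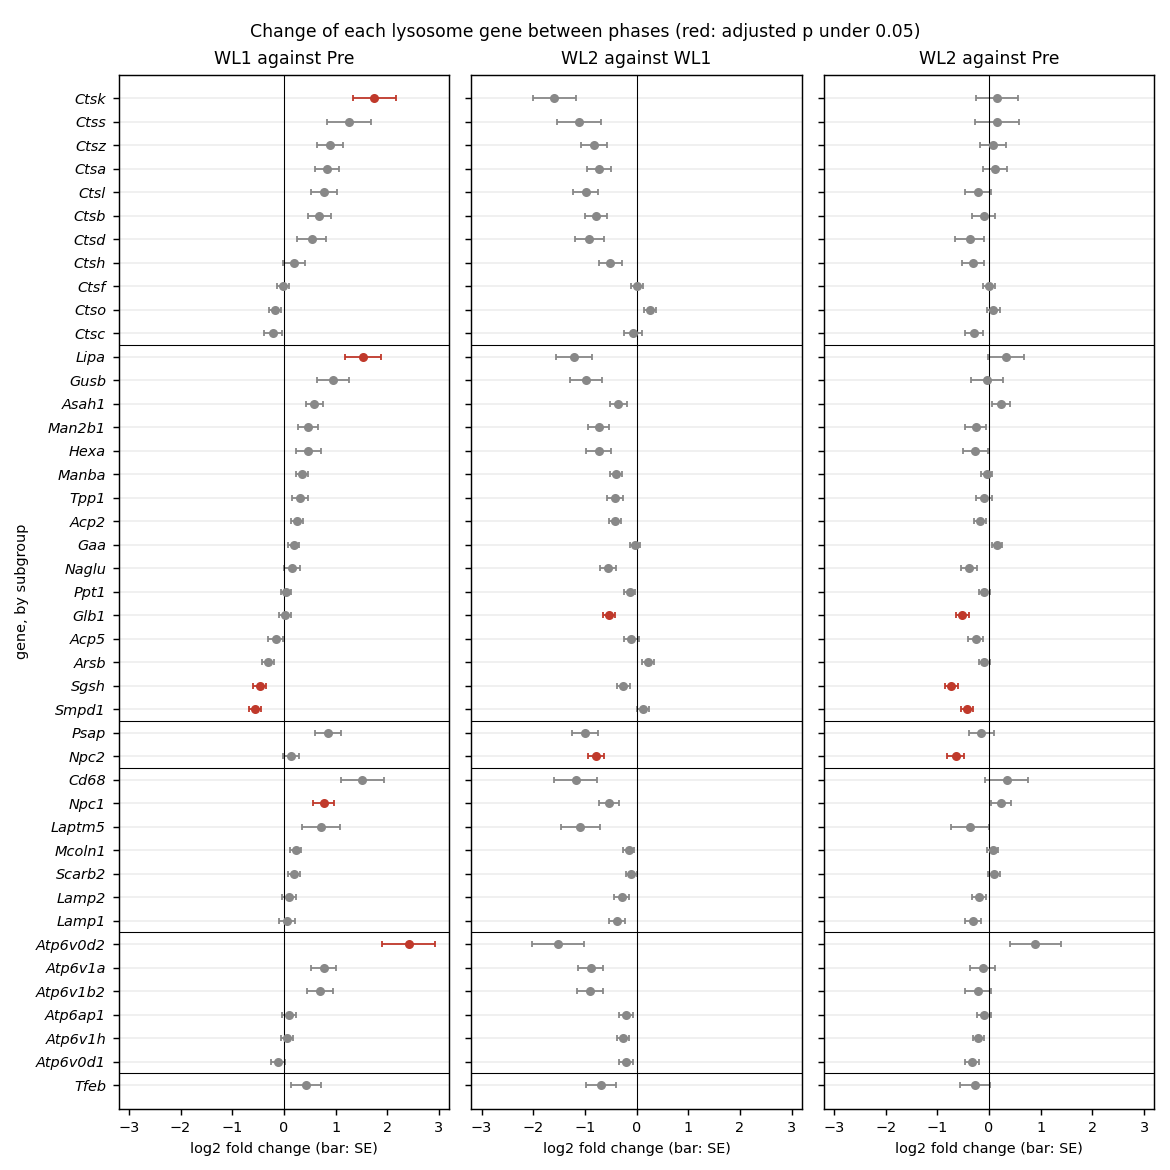
Log2 fold change (horizontal axis, bar: SE) of each of the 43 genes, by subgroup, for WL1 against Pre, WL2 against WL1 and WL2 against Pre, from edgeR over 9 libraries. Red points passed the adjusted threshold of 0.05, from Atp6v0d2 at 2.42 down to Smpd1 at -0.56 in the first comparison.

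Among the proton pump genes, the d subunits of the membrane sector had unlike orders of libraries. Atp6v0d1 encodes the form present in most cells, and Atp6v0d2 the form known from osteoclasts, macrophages and epithelia. Atp6v0d2 held 33.9, 42.4 and 71.4 CPM at Pre, 193, 217 and 380.0 at WL1, and 176, 48.9 and 49.6 at WL2. All WL1 libraries were above all Pre and WL2 libraries, and WL2 replicate 1 was the only WL2 library above the Pre range. Its rise from Pre to WL1 was 5.34-fold, or 2.42 in log2 (SE 0.515, adjusted p = 0.0221), the largest of the 43 genes in this comparison. The call was lost without Pre replicate 1, Pre replicate 2 or WL1 replicate 3 (2.04 to 2.79, adjusted p up to 0.0798). At WL2 against WL1 the value was -1.52 (SE 0.50, adjusted p = 0.110).

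Atp6v0d1 held 159, 182 and 162 CPM at Pre, 127, 156 and 180 at WL1, and 146, 133 and 123 at WL2, with overlap between Pre and WL1. Its log2 fold changes were -0.12 (SE 0.14, adjusted p = 0.633) for WL1 over Pre and -0.32 (SE 0.14, adjusted p = 0.169) for WL2 over Pre. In FPKM, which is per length, Atp6v0d2 made up 12.4%, 13.3% and 22.5% of the sum of both genes at Pre, 50.1%, 47.9% and 58.2% at WL1, and 44.3%, 19.6% and 21.1% at WL2. The d2 form thus reached about the level of d1 in the WL1 libraries and in WL2 replicate 1, and not in the other 5 libraries.

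**Figure D4:**
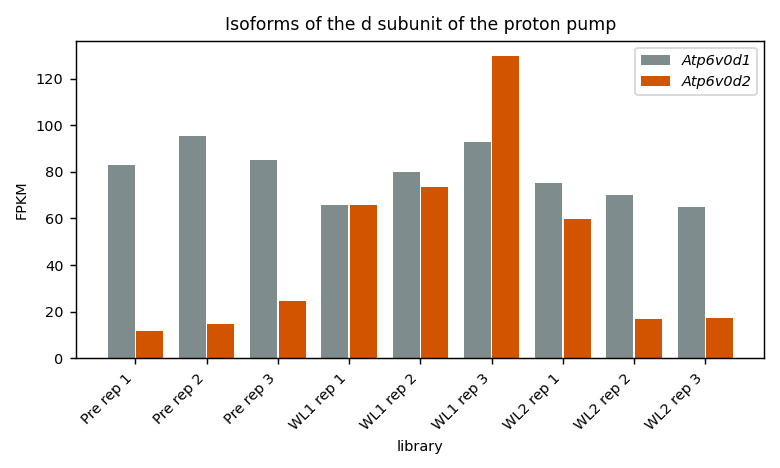
FPKM of Atp6v0d1 (grey bars) and Atp6v0d2 (orange bars) in each of the 9 libraries. Atp6v0d2 lies between 11.7 and 24.7 FPKM at Pre and between 65.9 and 130 at WL1, while Atp6v0d1 lies between 64.8 and 95.3 in all libraries.

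The A subunit, which is catalytic, and the B subunit form the ring of the cytosolic sector. Atp6v1a held 146, 178 and 187 CPM at Pre, 236, 261 and 373 at WL1, and 220.1, 123 and 128 at WL2, with 0.77 (SE 0.24, adjusted p = 0.0840) at WL1 against Pre. It had the smallest p of the pump genes that did not pass there. Atp6v1b2 ranged from 230.4 to 288 CPM at Pre, from 333 to 540 at WL1 and from 175 to 324 at WL2, with 0.69 (SE 0.25, adjusted p = 0.129). The WL1 libraries of both were above all libraries of the other phases. The regulatory H subunit Atp6v1h and the accessory protein Atp6ap1 ranged from 85.6 to 124 and from 192 to 279 CPM over the 9 libraries, with overlap between Pre and WL1.

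A further contrast compared WL1 with the mean of Pre and WL2. A gene can pass it without differing from each of these phases, so it does not test a departure from both. Of the 7 genes that passed it, Ctsk, Lipa and Atp6v0d2 passed at WL1 against Pre, and none passed at WL2 against WL1. Of the 43 genes, 7 were higher (2.81% of all genes) and 0 lower (1.77% of all). At an unadjusted p under 0.05 the numbers were 26 and 2, beside 3827 of all 18510 genes in both directions together, and DESeq2 called 20 and 1. The 7 were Atp6v0d2 (1.97, SE 0.41), Ctsk (1.67, SE 0.34), Lipa (1.37, SE 0.29), Psap (0.92, SE 0.21), Ctsl (0.88, SE 0.21), Ctsz (0.86, SE 0.21) and Atp6v1a (0.83, SE 0.20), with adjusted p between 0.0294 for Ctsk and 0.0470 for Atp6v1a. The median over the 43 genes was 0.37, against 0.01 over all. These calls rested on single libraries: 0 remained without Pre replicate 1, any WL1 library, WL2 replicate 2 or WL2 replicate 3, 3 were made without Pre replicate 3, 9 without Pre replicate 2 and 19 without WL2 replicate 1.

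Tfeb, the transcription factor of the CLEAR network, held 21.6, 44.3 and 23.9 CPM at Pre, 32.7, 37.8 and 49.7 at WL1, and 32.9, 20.9 and 20.5 at WL2. Its highest Pre value was in replicate 2, where B cell genes were highest, and the phases overlapped. The log2 fold changes were 0.42 (SE 0.29, adjusted p = 0.400) for WL1 over Pre and -0.69 (SE 0.29, adjusted p = 0.198) for WL2 over WL1. TFEB is known to be controlled mainly by its location in the cell, which RNA levels do not measure.

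Other genes of the pathway were followed in 7 lists. For their counts, and those of the marker lists below, the shares of all genes called by edgeR are as follows. At WL1 against Pre 2.60% rose and 4.69% fell, at WL2 against Pre 3.35% and 6.66%, and at WL2 against WL1 1.31% and 2.37%. In lists this short, a single call can lie near these shares. Of 20 genes for the MiT/TFE factors and nutrient sensing at the lysosome, 6 rose and 0 fell at WL1 against Pre (2 lower at an unadjusted p under 0.05, 1 by DESeq2), with a median log2 fold change of 0.01. Mitf, a relative of TFEB, held 14.0, 17.9 and 20.2 CPM at Pre, 36.7, 32.2 and 48.7 at WL1, and 28.02, 19.6 and 19.6 at WL2, with 1.17 (SE 0.21, adjusted p = 0.00996) at WL1 against Pre. All its WL1 libraries were above all others, and the call remained in each of the 9 fits without 1 library (0.98 to 1.29). Flcn, which with its partners activates the RagC and RagD GTPases, held 43.1 to 51.3 CPM at Pre, 63.5 to 80.5 at WL1 and 68.7 to 75.1 at WL2. It passed at WL1 (0.57, SE 0.12, adjusted p = 0.0197, lost without Pre replicate 1, WL1 replicate 2 or WL1 replicate 3, 0.47 to 0.65) and at WL2 against Pre (0.56, SE 0.12, adjusted p = 0.0147, lost without WL2 replicate 2, 0.49 to 0.61). Its partner Fnip1 passed at WL1 (0.69, SE 0.13, adjusted p = 0.0137, lost without Pre replicate 1 or WL1 replicate 3, 0.56 to 0.75), as did Fnip2, Rragd and Tsc1. Tfe3 fell, as did Lamtor1 and Lamtor4, subunits of the Ragulator scaffold, at WL2 against Pre, the Lamtor calls in 5 of 9 fits each (lost without Pre replicate 1, Pre replicate 2, WL2 replicate 2 or WL2 replicate 3). Between WL1 and WL2 edgeR called 0 of the 20, with 6 lower at an unadjusted p under 0.05, 2 by DESeq2 and 3 without WL2 replicate 1.

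Of 31 other lysosomal hydrolases and cofactors, 4 rose at WL1 against Pre (Neu1, Idua, Gla and Dnase2a) and 0 fell (0 at an unadjusted p under 0.05 and 0 by DESeq2), with a median log2 fold change of 0.20. Gla, which removes galactose from glycolipids, held 15.2, 20.8 and 22.4 CPM at Pre, 43.6, 48.5 and 81.9 at WL1, and 41.6, 19.6 and 19.6 at WL2, the order of libraries seen for Lipa (1.57, SE 0.33, adjusted p = 0.0204 at WL1 against Pre, lost without Pre replicate 1 or WL1 replicate 3, 1.23 to 1.74). Neu1, the sialidase, held 52.8 to 55.0 CPM at Pre, 69.9 to 81.2 at WL1 and 73.0 to 87.6 at WL2. Its WL1 and WL2 libraries overlapped, all above Pre, and its WL2 to Pre difference in log2 was 0.55 (SE 0.11, adjusted p = 0.00991), which passed in each of the 9 fits without 1 library (0.47 to 0.60). Idua also passed upward at WL2 against Pre, and Gm2a and Man2b2, each in 7 of 9 fits, were among the 4 that fell. At WL2 against WL1, 5 of the 31 fell, among them Hyal1, Gm2a and Man2b2 (in 4, 4 and 3 of 9 fits), and 0 rose, with 1 higher at an unadjusted p under 0.05 and 0 by DESeq2. Without WL2 replicate 1, 11 fell there, and at WL2 against Pre 1 rose and 2 fell.

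Of 22 tested genes for other lysosomal membrane proteins and transporters, 3 rose (Slc17a5, Tpcn2 and Slc11a1) and 3 fell (Laptm4b, Mfsd8 and Cd164) at WL1 against Pre, with a median of 0.26. Mfsd8, a lysosomal transporter, held 56.5 to 66.8 CPM at Pre, 36.6 to 44.7 at WL1 and 31.1 to 34.6 at WL2, in separate ranges. Its log2 fold change equal to -0.93 (SE 0.11, adjusted p = 0.000819) at WL2 against Pre passed in each of the 9 fits without 1 library (-0.99 to -0.87), as did Laptm4b at WL1 (-0.68, SE 0.12, adjusted p = 0.00996, -0.74 to -0.57). Tmem192 also fell at WL2 against Pre, in 3 of 9 fits, and Cd164 at WL1 in 6 of 9. At WL2 against WL1 edgeR called 0 of the 22, with 1 higher and 10 lower at an unadjusted p under 0.05, and DESeq2 called 1 and 5. Without WL2 replicate 1, 6 fell there.

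Of 16 tested genes for other proton pump subunits, Tcirg1 rose at WL1 against Pre, and Atp6v0e2 and Atp6v1c2 fell, with a median of 0.11. Tcirg1, the a3 subunit of osteoclasts and macrophages, held 117, 116 and 146 CPM at Pre, 249, 277 and 430 at WL1, and 259, 115 and 110.3 at WL2. All its WL1 libraries were above Pre, WL2 replicate 1 lay within the WL1 range and the other WL2 libraries were below Pre, with a log2 fold change equal to 1.33 (SE 0.32, adjusted p = 0.0363) that was lost on leaving out any Pre or WL1 library (1.05 to 1.48). Atp6v0e2, an e subunit, fell from 79.0 to 96.9 CPM at Pre to 43.3 to 55.0 at WL1 (-0.88, SE 0.13, adjusted p = 0.00429), in each of the 9 fits without 1 library (-0.99 to -0.80). Atp6v1c2 passed in 5 of 9 fits. Atp6v0a1 fell at WL2 against WL1 in 4 of 9, and without WL2 replicate 1 the list had 1 higher and 3 lower there. At WL2 against Pre edgeR called 0 of the 16, with 2 higher and 5 lower at an unadjusted p under 0.05, and DESeq2 called 1 and 3.

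Of 19 tested genes for sorting and delivery to the lysosome, Igf2r, the mannose 6-phosphate receptor that carries new hydrolases, rose at WL1 against Pre and fell at WL2 against WL1. It held 116 to 131 CPM at Pre, 187 to 254 at WL1 and 116 to 163 at WL2 (0.81, SE 0.16, adjusted p = 0.0152 at WL1 against Pre, lost without Pre replicate 1 or WL1 replicate 3, 0.66 to 0.90). Its fall at WL2 against WL1 (-0.68, SE 0.16, adjusted p = 0.0441) remained in 2 of 9 fits, those without Pre replicate 2 and WL2 replicate 1 (-0.84 to -0.52). Gga3 rose too, in 2 of 9 fits. The medians of the 19 were 0.11, -0.04 and -0.23 in the 3 comparisons, in the order WL1 against Pre, WL2 against Pre, WL2 against WL1. Gnptab, which makes the mannose 6-phosphate tag, fell at WL2 against Pre, with 90.7 to 143 CPM at Pre and 57.4 to 72.0 at WL2 (-0.80, SE 0.16, adjusted p = 0.0119, lost without WL2 replicate 2, -0.94 to -0.60). Vps41 and Gga2 passed there as well, but in 4 and 0 of the 9 fits without 1 library, and without WL2 replicate 1 the list had 1 call there.

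Of 22 autophagy genes, whose median at WL1 against Pre was -0.04, 0 rose and 1 fell at WL1 against Pre, 0 rose and 3 fell at WL2 against Pre (Map1lc3a, Atg9a and Atg12, the last pair in 6 and 4 of 9 fits), and edgeR called 0 at WL2 against WL1. At an unadjusted p under 0.05, 1 was higher and 2 lower, 3 and 6, and 1 and 3, and DESeq2 called 0 and 1, 2 and 6, and 0 and 0. Map1lc3a, a protein of the autophagosome membrane, held 215 to 330.4 CPM at Pre, 148 to 203 at WL1 and 145 to 181 at WL2, below the Pre range in all 6 libraries after SD. It passed at WL1 (-0.73, SE 0.18, adjusted p = 0.0381, in 3 of 9 fits without 1 library, those without Pre replicate 3, WL1 replicate 2 and WL2 replicate 1, -0.90 to -0.61) and at WL2 (-0.83, SE 0.18, adjusted p = 0.0165, lost without Pre replicate 1 or WL2 replicate 3, -1.005 to -0.72). Of 4 tested protease inhibitors of the cathepsins, edgeR called 0 in the 3 comparisons, with 1, Cstb, at an unadjusted p under 0.05 (lower at WL2 against WL1), which DESeq2 called.

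Most macrophage markers were higher at WL1 and lower again at WL2, as most lysosomal genes were. Of 16, 14 had a positive log2 fold change at WL1 against Pre and 2 a negative one. At WL2 against WL1, 2 were positive and 14 negative. The 16 macrophage markers summed to 1889, 3552 and 2975 CPM at Pre, 3362, 3850 and 6278 at WL1, and 3628, 2125 and 2417 at WL2. The 43 lysosomal genes summed to 16521, 19102 and 18244 CPM at Pre, 22435, 25710 and 35505 at WL1, and 21537, 13298 and 13193 at WL2. Both sums were highest in WL1 replicate 3, and WL2 replicate 1 was the highest WL2 library in both. The ratio of the lysosomal to the macrophage sum was 8.74, 5.38 and 6.13 at Pre, 6.67, 6.68 and 5.66 at WL1, and 5.94, 6.26 and 5.46 at WL2, and overlapped between the phases. Between WL1 and Pre the median log2 difference of the 16 markers was 0.70. Of them Msr1 rose at WL1 against Pre, in 2 of 9 fits (those without WL2 replicates 1 and 2, 1.26 to 1.71), with 8 higher at an unadjusted p under 0.05, 5 by DESeq2 and 5 without WL2 replicate 1. In edgeR's test 0 passed in the comparisons of WL2, where 1 was higher at an unadjusted p under 0.05 against Pre, and 1 higher and 9 lower against WL1. DESeq2 called 0 against Pre and 3 lower against WL1, and without WL2 replicate 1 edgeR called 0 and 7 lower.

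The 11 markers of lipid-associated macrophages, the cells that gather around dying adipocytes, summed to 1987, 2719 and 2921 CPM at Pre, 5284, 6627 and 10903 at WL1, and 6146, 2130 and 2068 at WL2. The WL1 libraries and WL2 replicate 1 were above the other 5 libraries, the same division as for Atp6v0d2, Ctsk and Lipa. At WL1 against Pre, 6 of the 11 rose (Trem2, Cd9, Gpnmb, Mmp12, Dcstamp and Ocstamp), with a median of 1.51, 11 at an unadjusted p under 0.05, 8 by DESeq2 and 11 without WL2 replicate 1. From WL1 to WL2, 2 fell (Fabp5 and Ocstamp, in 2 and 3 of 9 fits), with 9 lower at an unadjusted p under 0.05, 3 by DESeq2 and 11 without WL2 replicate 1. At WL2 against Pre edgeR called 0, with 1 higher at an unadjusted p under 0.05, 0 by DESeq2 and 1 lower without WL2 replicate 1. The 12 adipocyte markers summed to 30230 to 39052 CPM in the Pre, 22208 to 29857 in the WL1 and 33269 to 36299 in the WL2 libraries, lowest in WL1 replicate 3. At WL1 against Pre, 0 of the 12 rose and 4 fell (Plin1, Lep, Cidec and Retn), with 2 higher at an unadjusted p under 0.05 and 1 by DESeq2. At WL2 against Pre, 3 rose (Pck1, Cfd and Aqp7) and 2 fell (Lep and Cidec), and at WL2 against WL1, 2 rose (Retn and Cfd) and 1 fell (Lep). Without WL2 replicate 1, 1 adipocyte gene rose at WL2 against Pre. None of the macrophage or adipocyte markers was at 0 in any library. The part of cell composition in the values of the lysosomal genes was not tested.

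**Figure D5:**
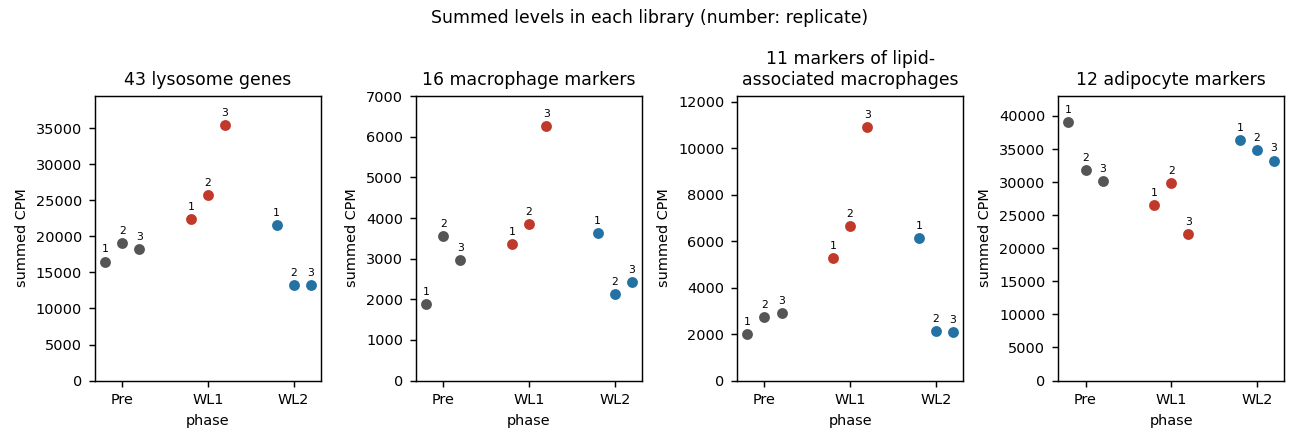
Summed CPM in each library (points, numbered by replicate) of the 43 lysosomal genes, 16 macrophage markers, 11 markers of lipid-associated macrophages and 12 adipocyte markers, at Pre, WL1 and WL2. The first 3 sums are highest in WL1 replicate 3, where the adipocyte sum is lowest, and WL2 replicate 1 lies above the other WL2 libraries.

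Markers of other cells were checked in the same way. In whole lists, edgeR called 0 of 6 endothelial, 6 T cell, 5 B cell, 5 mast cell and 5 mesothelial genes in each of the 3 comparisons. At an unadjusted p under 0.05, 0 endothelial genes differed, 3 T cell genes were lower at WL2 against Pre, 4 B cell genes were lower at WL1 against Pre, 3 mast cell genes were higher at WL2 against Pre and 1 at WL2 against WL1, and 5 mesothelial genes were higher at WL2 against WL1. DESeq2 called 1 mast cell gene at WL2 against Pre and 0 of the others. The mesothelial genes summed to 33.5 to 339 CPM in the Pre, 40.9 to 196 in the WL1 and 214 to 603 in the WL2 libraries. Of 8 fibroblast genes, Dcn rose and Col3a1 fell at WL2 against Pre, in 5 and 4 of 9 fits. Of 4 tested neutrophil genes, S100a8 alone passed, with falls at WL1 and at WL2 against Pre. In both comparisons 2 of the 4 had a positive log2 fold change. S100a8 held 11.6 to 17.6 CPM at Pre and at most 3.596 CPM after SD. Its calls remained in 4 of 9 fits at WL1 and 9 of 9 at WL2. Of 3 tested skeletal muscle genes, Acta1 alone passed, with a fall at WL1 against Pre, where the other 2 had positive log2 fold changes. Acta1 held 28.7 to 43.9 CPM at Pre and at most 11.97 at WL1, and its call remained in 7 of 9 fits.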

How the data were processed

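The authors deposited a table of counts, whole numbers of reads per gene without normalization, and a table of FPKM (fragments per length and library size) for the same 9 libraries. The submitters' processing notes name HISAT2, HISAT, TopHat2 and CASAVA, and the builds GRCm38 and mm10, without versions. Coordinates of 1 of 43 genes equalled those of GENCODE M21 on GRCm38, so gene coordinates from the table are not printed. Counting program, annotation and strand setting are not named in any source used, and 4 genes were overlapped by a gene with more than 10% of their reads (Ctsa, Ppt1, Npc1 and Glb1).

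Counts were tested with edgeR 4.0.16 in R 4.3.3 (TMM factors between 0.933 and 1.07, glmQLFit and glmQLFTest, no covariates, Benjamini-Hochberg). Medians over lists were not tested. Alternatives were DESeq2 1.42.0, limma 3.58.1 on log2(FPKM + 1) and log2(FPKM + 0.1), other scalings and filters, the replicate number as a block, the compared phases alone, and leaving out each library. The test was also run on counts simulated from the mean levels and spread of these data, and its outcome is not given here. Within a phase no library repeats another: the chi-square between 2 libraries was 9.13 to 48.9 times its degrees of freedom. Libraries of different phases were not compared in this way.

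The 43 genes and the other lists were chosen with earlier results of these data known. Genes given by library are those past the threshold between 2 phases, in each subgroup the gene with the highest mean FPKM and the one with the smallest p that did not pass, Tfeb and the d subunits; of other lists, up to 3 genes with the smallest p. Other values shown were chosen after they were seen. Promoters of Npc1, Asah1, Ctsb, Ctsh, Atp6v1h, Atp6v1b2 and Atp6v0d2 were not analysed here.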

Additional observations from a re-analysis of the deposited data

How the results depend on the processing

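The medians over the 43 genes kept their direction in every setting tried except 1: at WL2 against Pre, -0.12 became 0.02 with library totals in place of TMM. The numbers of genes called did not, and how many of all genes each other setting called is not given here. Between WL1 and Pre (6 calls) they were 17 without a filter on low counts, 15 with DESeq2, 14 with library totals in place of TMM, 2 with the replicate block and 3 with limma on log2(FPKM + 0.1). At WL2 against Pre (4 calls) they were 1 with library totals and 1 with the replicate block. At WL2 against WL1 (2 calls) they were 20 without the filter, 18 with DESeq2, 1 with RLE factors, 0 with the replicate block and 1 with limma at either pseudocount. For WL1 against the other phases' mean (7 calls) they were 20 without the filter, 21 with DESeq2, 15 with library totals, 0 with the replicate block and 1 with limma at either pseudocount. Leaving out 1 library gave 0 to 16, 1 to 4, 0 to 19 and 0 to 19 calls, and medians of 0.18 to 0.39, -0.36 to -0.047, -0.64 to -0.32 and 0.29 to 0.47. Among genes named with a fold change, those that turned direction had not passed: at WL2 against Pre, Lipa (-0.23 to 0.55), Ctsk (-0.48 to 0.39, and -0.0015 with limma on log2(FPKM + 0.1)), Cd68 (-0.36 to 0.60) and Ctss (-0.50 to 0.40), and at WL1 against Pre, Atp6v0d1 (-0.26 to 0.0022) and Acp5 (-0.27 to 0.015). Library totals moved the median of all genes by 0.12 between WL1 and Pre, and by 0.16 between WL2 and Pre. The cause of these changes was not tested. Replicate numbers did not pair the libraries (correlations of same-numbered deviations between -0.23 and 0.09), so the block result is given here only. With 3 libraries per phase, calls near the threshold depend on single libraries. WL2 replicate 1 lay within the range of the WL1 libraries in 25 of the 43 genes. It was below that range in others, such as Glb1, Npc2 and Sgsh. Its adipocyte markers summed to 36299 CPM, above the 22208 to 29857 of the WL1 libraries. Whether its values come from the mouse or the label cannot be told apart, which limits every comparison with WL2. Through the model shared by all libraries, WL2 replicate 1 also enters the test of WL1 against Pre.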
